A study of Mus musculus with 48 samples.

Results

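Whole tibiae of 6 young male C57Bl6J mice are described here, 3 fed ad libitum (AL) and 3 held on calorie restriction (CR), out of 12 mice in the series, the other 6 being aged AL and aged CR mice. The labels give 10 weeks for the young mice and 15 to 18 months for the aged mice. The study's methods give 8 to 12 weeks and 15 to 18 months as the ages when the restriction began. Tibiae were taken after the 8 weeks of diet that followed. AL mice ate the NIH-31 diet freely, and CR mice received a modified, fortified NIH-31 diet for 8 weeks. Their ration was cut by 10% in week 1 of the restriction, then by 20% for a week, and by 40% for the rest. The study also performed osteotomies, surgical cuts through the tibia, 3 weeks before the end of the diet. Whether the sequenced mice or tibiae had this surgery was not given in the sources used here. The mice were taken by the group names of the deposited columns, 1 column per mouse, and are called here by their numbers in those names, young AL mice 9, 10 and 11 and young CR mice 1, 2 and 3. The muscle was removed and the frozen bone was ground whole, so each value mixes bone, marrow and whatever else was attached. Fewer cells of a type and less RNA per cell cannot be told apart in such samples.

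A tibia holds hard bone with its osteoblasts, osteocytes and osteoclasts, and a marrow cavity in which red cells, neutrophils, platelets and B lymphocytes are made beside fat cells and vessels. B lymphocytes start in the marrow from progenitors that switch on the transcription factors Ebf1 and Pax5, and leave it as immature cells. Type I interferons act on nearly all cells and switch on interferon-stimulated genes, many of which share a promoter element, and they also raise MHC class I, the molecules that show peptides to T cells.

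Expression was given as FPKM, a read density corrected for transcript length and library size, which the authors quantile normalized. Of 29801 genes in the table, 13590 averaged 1 FPKM or more across all 12 mice and were tested on log2(FPKM + 1), a scale that understates the change of genes with low values. A fold change below is the difference of group means on that scale, CR minus AL. Quantile normalization gave every mouse the same distribution, with the globin genes at 29.12% of the FPKM in each, so a shift in total RNA or in the most abundant genes could not be seen. The depth per mouse is unknown. Genes listed at 0 numbered 7463 to 7648 in the young AL mice and 7979 to 8057 in the young CR mice. These ranges did not overlap, and their part in the results below was not tested.

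The young tibiae expressed the genes that define bone and marrow. Bglap (osteocalcin) had 695 ± 111 FPKM in AL mice (SD, n = 3) against 364 ± 90.3 FPKM under CR (SD, n = 3). Osteocytes were marked by Dmp1 at 17.0 ± 0.954 and 19.2 ± 2.70 FPKM, osteoclasts by Acp5 at 248 ± 49.2 and 330 ± 32.0 FPKM, and neutrophil precursors by Mpo at 333 ± 15.1 and 331 ± 34.8 FPKM. Skeletal muscle was present at a low and uneven level. Its 18 tested genes summed to 455, 324 and 650 FPKM in AL mice and to 536, 820 and 244 FPKM in CR mice, and none of the 18 had an unadjusted p under 0.05.

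Across all genes, 9 passed an adjusted p under 0.05 in limma for CR in young mice, or 0.0662% of those tested, and 5 of them rose while 4 fell. At an unadjusted p under 0.05 there were 787 genes higher (5.79%) and 712 lower (5.24%). The 3 CR mice lay wholly above the 3 AL mice in 1371 genes (10.1%) and wholly below them in 1275 (9.38%). These shares are the background for every count of list members below, and the median fold change over all genes was 0.01.

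The 4 genes that fell differ in kind from the fat cell genes among the 5 that rose. H2-Q6, a class I gene of the MHC on chromosome 17 (GRCm38, chr17:35424850-35430055, plus strand), had 43.7, 36.2 and 55.4 FPKM in AL mice and 21.2, 23.1 and 19.8 FPKM in CR mice. All CR values lay below all AL values, and the fold change was -1.02 (standard error 0.15, limma adjusted p = 0.0445). H2-Q6 belongs to a cluster of near-identical genes between which reads can be split, so its own level is uncertain. Its neighbour H2-Q5, which was looked up after its values were seen, had a fold change of -1.01 (unadjusted p = 4.12e-05).

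The other three that fell are noncoding. Mir6924, a miRNA gene at chr11:69882032-69882094 on the minus strand, lies wholly in an intron of Acap1, a gene for a membrane traffic protein. It had 7.22, 6.87 and 8.52 FPKM in AL and 2.92, 3.14 and 2.15 FPKM in CR mice, a fold change of -1.20 (standard error 0.14, limma adjusted p = 0.0144). Its host Acap1, on the same strand, averaged 45.7 FPKM in AL against 40.7 FPKM in CR mice (fold change -0.17, unadjusted p = 0.403). The libraries were made from poly(A) RNA, so these reads cover the region of the 63-base hairpin and do not measure the mature miRNA. Its arms, from RefSeq on GRCm38.p6, are shown because Mir6924 was the miRNA gene that passed the adjusted test, with the seed (bases 2 to 8) in capitals.
mmu-miR-6924-5p: aGAGGAUGgggauuuggcgaagu
mmu-miR-6924-3p: uCCUUAAUccccacccuucag
The arms have different seeds.

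Gm14027, a processed transcript that overlaps Zc3h6 on chromosome 2 (chr2:129016952-129021756, plus strand), had 2.16, 2.65 and 2.70 FPKM in AL and 0.581, 0.925 and 0.596 FPKM in CR mice (fold change -1.04, standard error 0.14, limma adjusted p = 0.0317). Gm23639, a snoRNA gene of 132 bases in an intron of the long noncoding RNA Epb41l4aos, had 3.48, 2.41 and 2.88 FPKM in AL and 0.720, 0.743 and 0.466 FPKM in CR mice (fold change -1.25, standard error 0.18, limma adjusted p = 0.0445). In both, as in the miRNA gene, all CR mice lay below all AL mice. Epb41l4aos itself had means of 19.2 and 19.0 FPKM. Of the 4805 bases of Gm14027, 1612 lie in exons of Zc3h6 on the same strand, so reads there may come from either gene. Zc3h6 was not among the genes tested. As for Mir6924, the reads cover the region of Gm23639 and do not measure the mature snoRNA.

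In aged mice these 4 genes had fold changes of -0.13 (H2-Q6), 0.08 (Mir6924), -0.14 (Gm14027) and 0.03 (Gm23639). The difference between the ages had unadjusted p-values of 0.00139, 5.38e-05, 0.000868 and 0.000461, and none passed adjustment over all genes (limma, adjusted p = 0.732 for Mir6924 and 0.999 for the others). Over all genes 0 passed for this difference in limma, with 575 at an unadjusted p under 0.05.

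**Figure D1:**
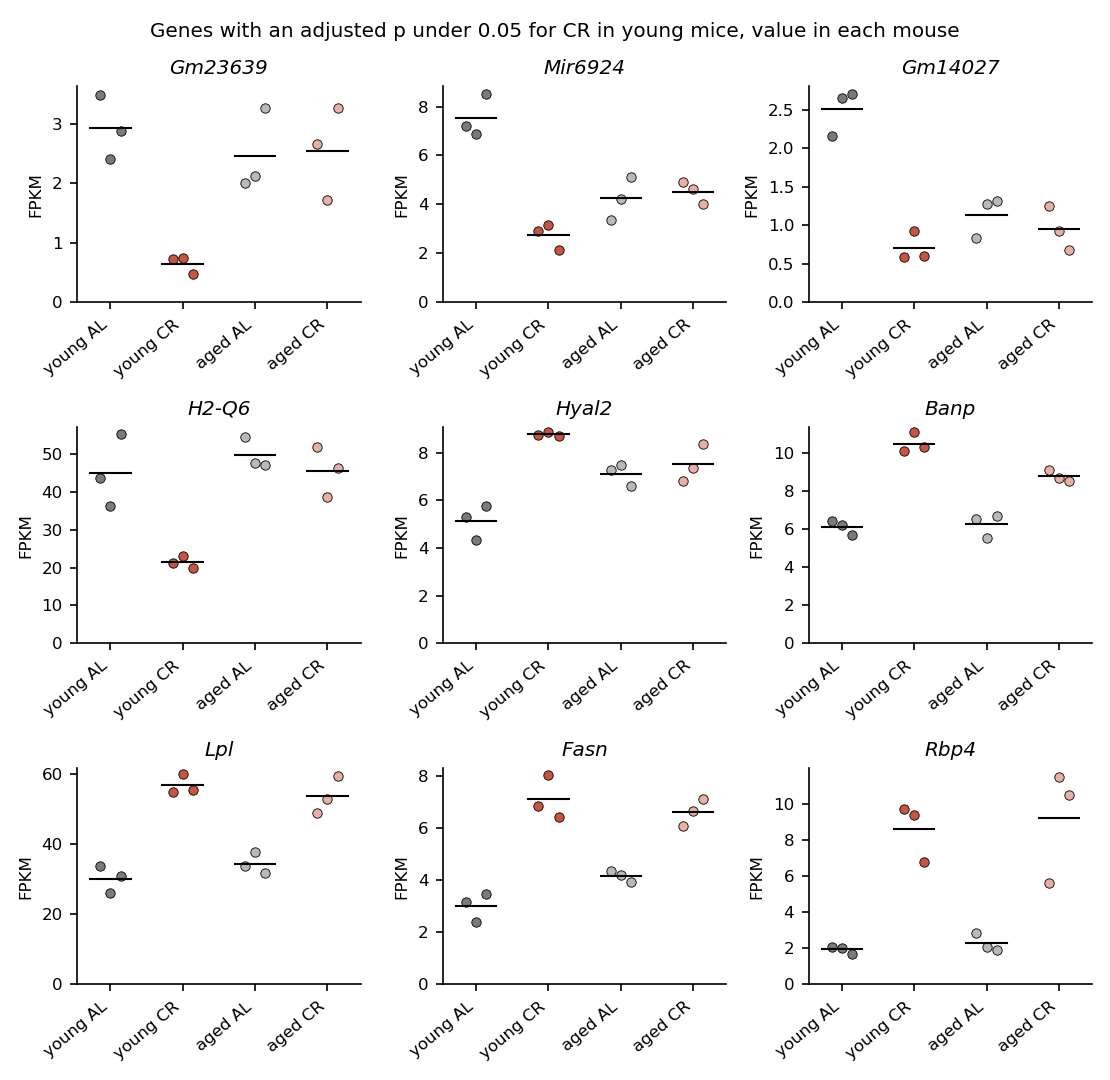
FPKM of the 9 genes with an adjusted p under 0.05 for CR in young mice, from the lowest to the highest fold change, with 1 point per mouse and a line at the mean of each group of 3. Young CR mice lie below young AL mice in the first 4 panels and above them in the other 5, and the aged groups overlap for the first 4 and Hyal2.

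Of the 5 genes that rose, 3 (Rbp4, Fasn and Lpl) are genes of fat cells and fat synthesis. The other two are not. Banp, which encodes a nuclear protein that binds unmethylated CG-rich promoters, had 6.42, 6.20 and 5.69 FPKM in AL and 10.1, 11.1 and 10.3 FPKM in CR mice. Hyal2, a membrane-anchored hyaluronidase, had 5.29, 4.34 and 5.75 FPKM in AL and 8.75, 8.85 and 8.70 FPKM in CR mice. The CR mice lay above the AL mice in both. In aged mice Banp kept its direction with groups that did not overlap (fold change 0.43), and Hyal2 had a fold change of 0.06.

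B cell genes were lower in young CR mice as a group. Of 19 tested genes of early B cell development, 18 had a negative fold change, 13 had CR mice wholly below AL mice (background 9.38%) and 7 were lower at an unadjusted p under 0.05 (background 5.24%), with none higher. Their median fold change was -0.65, against 0.01 over all genes. None passed an adjusted p in the model of all 12 mice. Bach2, a repressor that holds B cells back from becoming plasma cells, had 2.28, 2.31 and 2.14 FPKM in AL and 1.11, 0.843 and 0.871 FPKM in CR mice (fold change -0.74, standard error 0.18, unadjusted p = 0.00158). Pax5, which commits progenitors to the B lineage, had 7.57, 5.22 and 5.36 FPKM in AL and 3.27, 2.66 and 2.39 FPKM in CR mice (fold change -0.89, unadjusted p = 0.00604). Ebf1, which acts just before it, had 4.96, 4.41 and 4.51 against 2.70, 2.66 and 2.71 FPKM (fold change -0.61, unadjusted p = 0.0148). All CR mice lay below all AL mice in each of these genes.

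Genes of mature B cells had the same sign in 18 of 21 entries (the 20 symbols of the list plus a second identifier of 1 of them), with 13 wholly lower, 6 lower at an unadjusted p under 0.05 and a median of -0.36. Cd72, an inhibitory coreceptor of the B cell receptor, had 49.8, 36.8 and 46.7 FPKM in AL and 20.1, 19.6 and 18.7 FPKM in CR mice (fold change -1.14, standard error 0.40, unadjusted p = 0.0152). Fcrla, an Fc receptor-like protein inside B cells, had 22.9, 23.3 and 27.6 against 13.4, 9.97 and 9.95 FPKM (fold change -1.09), and Siglecg, an inhibitory lectin, had 21.9, 16.1 and 18.3 against 9.68, 8.85 and 10.6 FPKM (fold change -0.88). Spib, a transcription factor of B cells and plasmacytoid dendritic cells, was among the 12 largest decreases by the naming rule (24.8, 21.8 and 28.4 against 13.7, 11 and 13.2 FPKM). The 3 CR mice were close to each other in all of these.

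Plasma cell and immunoglobulin constant genes were less uniform. Of 18, 13 were negative and 4 were lower at an unadjusted p under 0.05, among them Jchain, which links IgA and IgM units (153, 216 and 302 FPKM in AL against 151, 151 and 91.7 FPKM in CR mice), and Irf4, which drives plasma cell formation (4.25, 4.08 and 4.23 against 2.47, 2.21 and 1.99 FPKM). Irf4 stood clearly apart between the groups, and Jchain was spread over the AL mice. Immunoglobulin variable segments, 168 of them, had a median of -0.25 with a quartile range of -0.80 to 0.31, and differ by each mouse's own antibody repertoire. T and NK cell genes did not follow the B cell genes: 19 of 20 had a positive fold change, with a median of 0.21. Only 1 (Il2rb, an interleukin receptor chain) was higher at an unadjusted p under 0.05 and 2 stood wholly apart. These counts are near the backgrounds of 5.79% and 10.1%. By mouse, the list deviated on average by -0.48, -0.17 and 0.02 (log2) in AL and by 0.01, 0.02 and -0.03 in CR mice, so the groups overlapped.

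The aged mice bear on how these B cell values were tested, since all 12 mice share 1 estimate of spread. The early B cell list had a mean deviation of 0.65, 0.53 and 0.68 (log2) in young AL and 0.26, 0.09 and -0.18 in young CR mice, but -1.01 in aged AL mouse 14 against 0.29 and 0.41 in the other aged AL mice. In a model of the 6 young mice alone, 14 of the 19 early B cell genes and 15 of the 21 mature B cell genes were lower at an unadjusted p under 0.05, where 6.75% of all genes were, and 3 and 5 of them passed the adjusted test. With aged AL mouse 14 and aged CR mouse 5 both left out, 14 early and 11 mature B cell genes were (7.36% of all genes). A quality weight per mouse gave 9 early and 11 mature genes. Leaving out single mice gave 3 to 11 early and 2 to 8 mature genes. In aged mice the median fold change of the early list was -0.26 and that of the mature list 0.00, but the early list stood at -0.32, -0.73 and -0.67 in the aged CR mice. Without aged AL mouse 14 its aged median was -0.64, near the young median of -0.65, and the mature list had -0.27. In that fit 15 of the 19 early genes were lower at an unadjusted p under 0.05 (4.0% of all genes). Without aged CR mouse 5 the aged medians were -0.19 for the early and 0.32 for the mature list. Without both mice they were -0.55 and -0.01. The difference between ages was not tested for a list.

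Interferon-stimulated genes had lower values in young CR mice throughout. All 31 tested genes of the type I interferon list had a negative fold change, from -1.18 to -0.20, with a median of -0.50, and in 23 the CR mice lay wholly below the AL mice. Only 6 had an unadjusted p under 0.05 and none passed the adjusted test. Xaf1, a partner and inhibitor of the apoptosis inhibitor XIAP, had 7.54, 7.93 and 7.41 FPKM in AL and 3.49, 2.51 and 3.41 FPKM in CR mice (fold change -1.07, standard error 0.45, unadjusted p = 0.0356). Mx1, an antiviral GTPase, had 3.45, 3.82 and 3.29 FPKM in AL and 1.51, 1 and 2.07 FPKM in CR mice (fold change -0.86, unadjusted p = 0.0189). Eif2ak2, the kinase PKR that senses double-stranded RNA, had 6.98, 8.29 and 7.49 against 5.39, 4.08 and 4.70 FPKM (fold change -0.59, unadjusted p = 0.0231). The young groups did not overlap in any of these genes.

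Aged CR mouse 5 stood far from the other aged CR mice in these genes, and its values enter the shared estimate of spread. Its Xaf1 was 16.9 FPKM and its Mx1 5.38 FPKM, while the other aged CR mice had 3.33 and 2.85 FPKM of Xaf1 and 1.44 and 1.69 FPKM of Mx1. The 31 genes together summed to 1180 FPKM in that mouse, to 464, 514 and 517 FPKM in young AL mice, to 392, 313 and 324 FPKM in young CR mice, and to 530, 557 and 451 FPKM in aged AL mice. In the other aged CR mice they summed to 298 and 328 FPKM, below every aged AL mouse. Without aged CR mouse 5, 25 of the 31 genes were lower in young CR mice at an unadjusted p under 0.05, where 5.58% of all genes were, and 4 passed the adjusted test. In the model of young mice alone 27 were, and 4 passed, and without both aged mice 26 were. A quality weight per mouse gave 13 such genes. Leaving out single mice gave 0 to 25, with young medians of -0.63 to -0.46. The median fold change in aged mice was -0.12 with mouse 5 and -0.60 without it, when 24 of the 31 genes were lower in aged CR mice at an unadjusted p under 0.05 (3.41% of all genes).

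**Figure D2:**
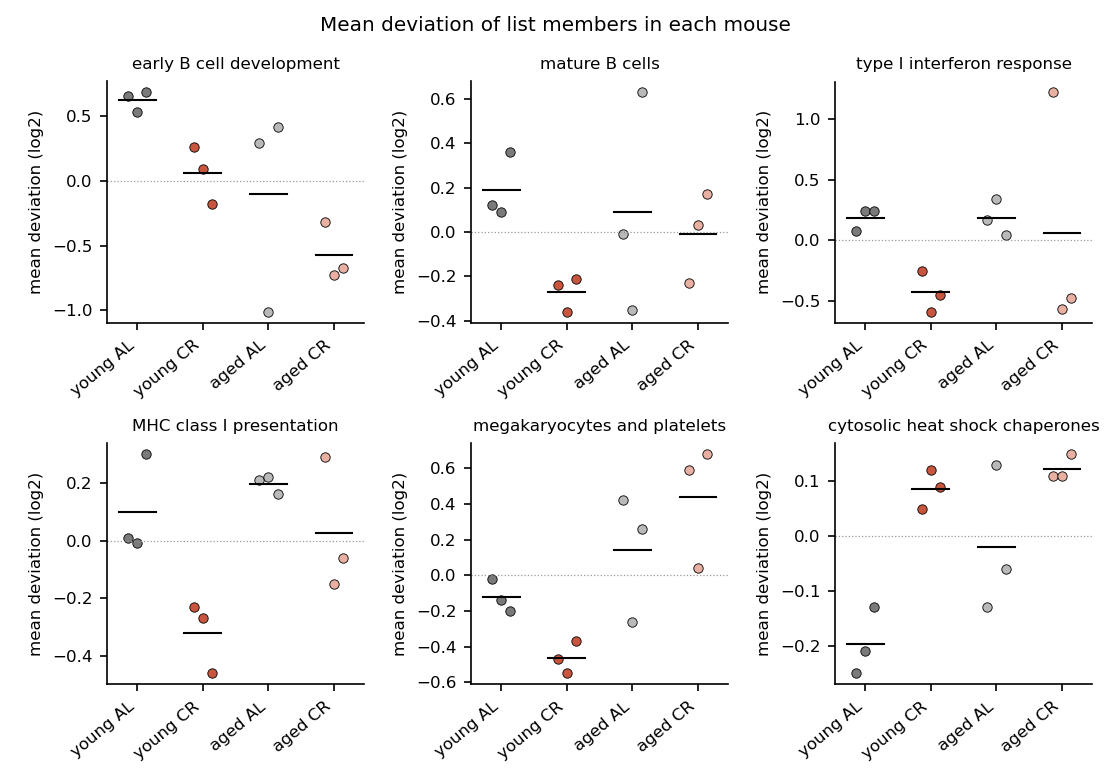
Mean log2 deviation of the members of 6 gene lists from each gene's own average, with 1 point per mouse and a line at the group mean. The young CR points lie below the young AL points in the first 5 panels and above them for heat shock chaperones, and aged CR mouse 5 stands at 1.22 for the type I interferon response.

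Guanylate-binding proteins and immunity-related GTPases, which attack membranes of intracellular microbes and answer mainly to interferon gamma, were negative in 14 of 14, with a median of -0.41. The groups stood apart in 7, and 4 were lower at an unadjusted p under 0.05. Gbp9 had 3.36, 2.86 and 3.32 FPKM in AL and 2.07, 1.77 and 1.78 FPKM in CR mice (fold change -0.54, unadjusted p = 0.00336), and Igtp had 21.5, 24.9 and 26.1 against 17.1, 15.6 and 14.7 FPKM (fold change -0.58, unadjusted p = 0.0167). CR mice lay below AL mice in both.

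The promoters of these genes carried the letters of the interferon-stimulated response element more often than others did. GAAANNGAA, searched on both strands in the 250 bases before the start of each RefSeq gene on GRCm38.p6, was found in 11 of 21 promoters of the type I interferon list (52.4%) and in 9 of 9 of the guanylate-binding and immunity-related GTPase list, against 8.0% of the 9146 tested genes with a promoter in the table. Around the match, the promoters of Igtp and Irgm2 are nearly alike, as are those of Tgtp1 and Tgtp2, so the 9 may not be separate observations. The letters were found in 4 of 15 promoters of MHC class I presentation genes (26.7%) and in 1 of 15 of early B cell genes (6.67%). These genes are known interferon targets, so the match describes the lists and no binding was measured. Stretches of 150 bases before the start are shown for 3 genes of these lists with the matches in capitals, where overlapping matches run together, because their genes had lower values in every young CR mouse.
Isg15 (chr4:156200819-156200968, minus strand): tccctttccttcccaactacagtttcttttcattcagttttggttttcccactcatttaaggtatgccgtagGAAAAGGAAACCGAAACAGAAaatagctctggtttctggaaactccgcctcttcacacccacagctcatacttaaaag
Igtp (chr11:58199406-58199555, plus strand): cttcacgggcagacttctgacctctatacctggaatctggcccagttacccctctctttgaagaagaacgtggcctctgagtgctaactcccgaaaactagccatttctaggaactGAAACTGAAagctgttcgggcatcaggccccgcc
B2m (chr2:122147537-122147686, plus strand): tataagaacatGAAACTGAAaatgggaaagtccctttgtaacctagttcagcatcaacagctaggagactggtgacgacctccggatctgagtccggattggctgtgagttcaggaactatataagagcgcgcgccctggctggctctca
Ifit1, an interferon-induced protein that binds foreign RNA caps and has the same letters in its promoter, had 3.42, 4.58 and 4.81 FPKM in AL and 2.23, 1.48 and 1.94 FPKM in CR mice (fold change -0.87, unadjusted p = 0.154). Isg15, a ubiquitin-like modifier, had 72.0, 83.6 and 87.3 against 69.9, 48.1 and 50.8 FPKM (fold change -0.53, unadjusted p = 0.312). Neither passed a test in the model of 12 mice, although the young groups did not overlap. These genes were chosen for their promoters after values were seen.

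MHC class I presentation genes, the 1 immune list with a gene past the adjusted test, were negative in 17 of 17 with a median of -0.32. Of them 11 stood wholly lower and 10 were lower at an unadjusted p under 0.05. H2-Q4 had 51.8, 41.9 and 57.6 FPKM in AL and 32.0, 31.4 and 24.9 FPKM in CR mice (fold change -0.75, standard error 0.14, unadjusted p = 0.000202). H2-K1, a classical class I heavy chain, had 418, 383 and 482 against 302, 308 and 286 FPKM (fold change -0.51, standard error 0.12, unadjusted p = 0.00154). In both the highest CR mouse was below the lowest AL mouse.

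The partners of these heavy chains had the same sign, here named after their values were seen. B2m, the light chain of every class I molecule, had 835, 922 and 1010 FPKM in AL and 596, 596 and 672 FPKM in CR mice (fold change -0.57, unadjusted p = 0.00304). Tap1, a subunit of the peptide transporter, had 23.3, 18.9 and 24.3 against 13.1, 14.1 and 11.9 FPKM (fold change -0.72, unadjusted p = 0.00155). These are single-copy genes, unlike the H2-Q cluster. MHC class II genes were negative in 11 of 11 with a median of -0.20, and 2, H2-Aa and H2-Ab1, were lower at an unadjusted p under 0.05 (fold changes -0.61 and -0.53). Dendritic cell genes were negative in 11 of 13, with Irf8, a factor their precursors need, at a fold change of -0.25 (unadjusted p = 0.00921), and that list shares Bst2 with the interferon list.

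Platelet genes were lower in young CR mice. Of 17 megakaryocyte and platelet genes, 14 had CR mice wholly below AL mice, 4 were lower at an unadjusted p under 0.05 and the median was -0.33. In aged mice the median was 0.33 with all mice and 0.10 without aged AL mouse 14, and 0 of the 17 were higher or lower at an unadjusted p under 0.05 in limma, where 4.5% of all genes were higher. Ppbp, a chemokine stored in platelet granules, had 735, 698 and 647 FPKM in AL and 415, 362 and 540 FPKM in CR mice (fold change -0.68, standard error 0.20, unadjusted p = 0.00569). Pf4, platelet factor 4, had 465, 426 and 392 against 310, 279 and 291 FPKM (fold change -0.54, unadjusted p = 0.0111), and Rab27b, which moves platelet granules, had 11.4, 12.5 and 10.9 against 7.79, 6.32 and 7.92 FPKM (fold change -0.60, unadjusted p = 0.00452). CR mice lay below AL mice in all of these. Their fold changes in aged mice were 0.20, 0.33 and 0.31 (0.02, 0.15 and 0.13 without aged AL mouse 14), and the difference between ages had unadjusted p-values of 0.00925, 0.00531 and 0.00288, none of which passed adjustment (limma, adjusted p = 0.999 each).

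Among the other marrow lineages, of 18 erythroid genes 1 was higher at an unadjusted p under 0.05, Klf1, a master factor of red cells (93.5, 86.5 and 96.5 FPKM in AL against 120, 115 and 133 FPKM in CR mice). Neutrophil primary granule genes had a median of 0.09 and mature neutrophil genes of 0.00, and none of 20 mitosis or 20 DNA replication genes had an unadjusted p under 0.05. Of 20 monocyte and macrophage genes 1 was higher, and of 12 stem and progenitor genes 1 was higher and 1 lower. The eosinophil, basophil and mast cell list was split, with 5 of 15 genes wholly higher and 3 wholly lower. In the model of young mice alone 4 of these were higher at an unadjusted p under 0.05 (6.83% of all genes) and 3 lower, and in the model of 12 mice none was. Ear1 and Ear2, ribonucleases of eosinophils, averaged 96.7 and 117 FPKM in AL against 152 and 165 FPKM in CR mice, and Mcpt8, a basophil protease, averaged 72.8 against 42.7 FPKM. These genes were chosen after their values were seen, and the list stood at -1.77 in aged AL mouse 14 against 0.24 and 0.31 in the other aged AL mice. The embryonic globin gene Hbb-bh1 was among the 12 largest increases (10.3, 3.82 and 8.33 against 38.6, 18.6 and 12.2 FPKM), and its values varied widely within both groups.

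Among bone genes, Runx2, the factor that commits cells to the osteoblast lineage, was the 1 of 16 osteoblast genes lower at an unadjusted p under 0.05 (5.2, 5.47 and 4.56 FPKM in AL against 3.53, 4.23 and 4.13 FPKM in CR mice). In 5 of the 16 the CR mice lay wholly below the AL mice and in none above, Runx2, Bglap, Bglap2, Bglap3 and Col1a2, of which the Bglap genes are close copies. In the model of young mice alone 5 of the 16 were lower at an unadjusted p under 0.05, and 1 passed the adjusted test. The list stood at -0.84 in aged AL mouse 14 against 0.15 and -0.17 in the other aged AL mice. Osteoclast genes were higher in 2 of 12, Slc9b2, a sodium-proton exchanger (fold change 0.47, unadjusted p = 0.00227), and Oscar, an osteoclast receptor (fold change 0.39, unadjusted p = 0.0234). Growth plate genes were split, with 2 higher and 2 lower of 15. Acan, the core of cartilage proteoglycan, had 2.99, 2.49 and 3.66 FPKM in AL and 4.60, 4.91 and 5.2 FPKM in CR mice, while the cartilage collagen gene Col11a1 had 12.1, 10.3 and 11.1 against 6.56, 8.14 and 6.80 FPKM. The groups of each did not overlap. Sfrp4, a secreted Wnt inhibitor, was lower (12.8, 15.6 and 15.6 against 10.0, 8.79 and 7.37 FPKM, fold change -0.69, unadjusted p = 0.000293).

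Of 13 genes of the growth hormone and IGF axis, 3 had higher values at an unadjusted p under 0.05, and none was lower by the same measure. Igfbp3, the main carrier of IGF1 in blood, had 2.96, 3.99 and 3.59 FPKM in AL and 8.55, 11.4 and 11.1 FPKM in CR mice (fold change 1.33, standard error 0.23, limma adjusted p = 0.0863). Ghr, the growth hormone receptor, had 5.05, 4.97 and 5.42 against 8.37, 10.9 and 8.81 FPKM (fold change 0.75, unadjusted p = 0.0083). Both stood wholly higher in CR mice. Igfbp5 was the other, with a fold change of 0.44 to 0.54 as single mice were left out. Gdf15, a secreted stress signal that lowers food intake, belongs to another list, that of cell cycle inhibitors and p53 targets. It was the 1 of 12 genes there that was higher at an unadjusted p under 0.05 (background 5.79%). Gdf15 had 2.02, 1.83 and 1.72 against 4.24, 3.43 and 3.67 FPKM (fold change 0.74, unadjusted p = 0.000561).

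Cytosolic chaperones were higher as a group. Of 17, 16 had a positive fold change, 11 stood wholly higher (background 10.1%) and 8 had higher values at an unadjusted p under 0.05 (background 5.79%), with a median of 0.22. Hspa8, the constitutive HSP70, had 178, 198 and 231 FPKM in AL and 304, 271 and 361 FPKM in CR mice (fold change 0.62, standard error 0.16, unadjusted p = 0.0025). Its partner Dnaja1 had 19.0, 20.7 and 21.8 against 26.5, 26.3 and 29.9 FPKM (fold change 0.41, standard error 0.09, unadjusted p = 0.000866). The values of the CR mice all exceeded those of the AL mice for both. The letters GAANNTTC of the heat shock element were in 5 of 13 promoters of this list (38.5%) and in 6.19% of all. Among the 5, the promoters of Hspd1 and Hspe1 overlap on opposite strands and hold the same match. The letters are shown in capitals for Hspb1, a small heat shock protein with 1.23, 1.22 and 1.94 FPKM in AL and 2.13, 4 and 2.38 FPKM in CR mice. They occur at 2 places.
Hspb1 (chr5:135887769-135887918, plus strand): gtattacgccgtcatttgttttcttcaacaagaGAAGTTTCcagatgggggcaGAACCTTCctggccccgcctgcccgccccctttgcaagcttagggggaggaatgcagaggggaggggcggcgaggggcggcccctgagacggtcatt
These letters read the same on both strands.

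Genes that answer to glucocorticoids were higher in 8 of 16 at an unadjusted p under 0.05, with a median of 0.44. Those that stood apart included Fkbp5, a chaperone of the glucocorticoid receptor (7.48, 9.50 and 10.2 FPKM in AL against 12.8, 23.3 and 33.0 FPKM in CR mice, fold change 1.17), and Tsc22d3, which encodes the mediator GILZ (24.6, 35.2 and 43.5 against 46.7, 69.9 and 71.5 FPKM, fold change 0.86), both named after their values were seen. CR mouse 1 was the lowest CR mouse in both. The naming rule picked Ddit4, Per1 and Errfi1 in this list. As single mice were left out, their fold changes were 1.10 to 1.59, 0.92 to 1.27 and 0.51 to 0.66. The letters ACANNNTGT were in 3 of 14 promoters of the list (21.4%), those of Map3k6, Mt1 and Sgk1, and in 4.49% of all. The E box CACGTG was in 4 of 14 (28.6%) against 9.88%. Other lists had higher shares. ACANNNTGT was in 27.3% of promoters of neutrophil secondary and tertiary granule genes and CACGTG in 40% of those of lysosome genes.

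**Figure D3:**
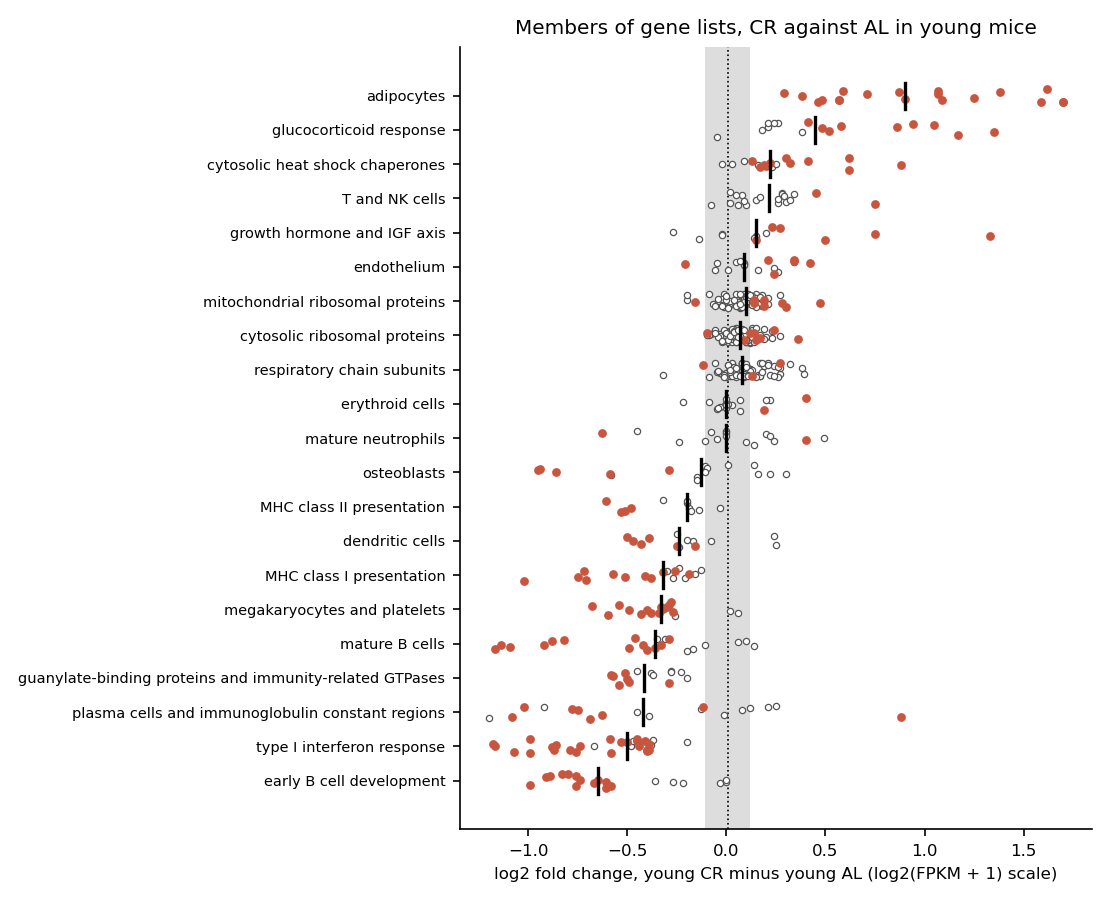
Fold change of each member of 21 gene lists for CR in young mice, on the log2(FPKM + 1) scale. Filled points are genes whose CR and AL mice do not overlap, bars are list medians, and the grey band and dotted line are the quartiles and median of all tested genes. The adipocyte list, at a median of 0.90, and the early B cell list, at -0.65, lie at opposite ends.

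Outside the lists, the naming rule brought up gene families. Serpina1a, Serpina1b and Serpina1d, near-identical genes for the protease inhibitor alpha-1 antitrypsin, were among the 12 largest increases. Serpina1d had 3.28, 2.53 and 2.82 FPKM in AL and 9.41, 17.0 and 8.14 FPKM in CR mice (fold change 1.63, standard error 0.36, unadjusted p = 0.000874). Serpina1c, looked up afterwards, had a fold change of 1.17 with groups that did not overlap. Reads can be split between these copies, so they may not be separate observations. The liver genes Alb and Apoa1 were listed at or near 0, with at most 0.0922 FPKM in any of the 12 mice. In aged mice the fold changes of the Serpina1 genes ranged from 0.15 to 0.50.

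Among the 12 largest decreases, Apol11a and Apol11b are neighbouring members of an apolipoprotein L family. Apol11a had 5.87, 6.12 and 13.7 FPKM in AL and 2.33, 2.03 and 1.67 FPKM in CR mice (fold change -1.58, standard error 0.34, unadjusted p = 0.00074), and a fold change of -1.31 in aged mice, where the groups did not overlap either. Apol11b had 75.5, 76.4 and 116 against 46.0, 38.1 and 44.4 FPKM (fold change -1.01). Myl4, a myosin light chain of atrial and embryonic muscle, had 14.2, 12.2 and 16.2 against 7.81, 5.28 and 2.50 FPKM (fold change -1.39, unadjusted p = 0.0175). Its direction was not that of the skeletal muscle list, whose median was 0.07. Neil1, a DNA repair glycosylase, was lower too (11.2, 7.46 and 8.69 against 4.88, 4.89 and 3.39 FPKM, unadjusted p = 0.00311).

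Small shifts ran through whole classes of genes. Of 1059 processed pseudogenes, 847 (80.0%) had a positive fold change, with a median of 0.11, and 110 against 9 were higher and lower, by unadjusted p. Their mean deviations were -0.10, 0.03 and 0.06 in AL and 0.15, 0.14 and 0.05 in CR mice, so the groups overlapped. In aged mice 428 were positive, with a median of -0.02. Such pseudogenes resemble the spliced mRNA of their parent gene and can take its reads. Cytosolic ribosomal protein genes were positive in 72 of 87, mitochondrial ribosomal protein genes in 63 of 77 and respiratory chain genes in 71 of 83, but their medians were 0.07, 0.10 and 0.08, and 3, 5 and 4 of them had an unadjusted p under 0.05, near the background of 5.79%. By mouse, the cytosolic ribosomal genes deviated by 0.02, 0.03 and 0.03 (log2) in AL mice and by 0.13, 0.19 and -0.02 in CR mice. CR mouse 3 thus lay below the AL mice, and the groups overlapped for all of these lists.

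Noncoding classes went the other way. snoRNA genes were negative in 63 of 85 with a median of -0.21, and 17 (20.0%) were lower at an unadjusted p under 0.05 against 1 higher. The medians were -0.16 for 72 miRNA genes, -0.11 for 107 processed transcripts, -0.09 for 122 antisense RNAs and -0.06 for 152 lincRNAs. Of them 19.4%, 14%, 12.3% and 11.8% were lower at an unadjusted p under 0.05. The libraries were made from poly(A) RNA, so reads at snoRNA and miRNA genes do not measure the mature RNAs. Levels of these classes were low, with median FPKM of 3.31 for snoRNA and 2.5 for miRNA genes. Mean deviations of processed transcripts were 0.12, 0.11 and 0.06 in AL and -0.04, -0.02 and -0.04 in CR mice, and those of snoRNA genes 0.21, 0.10 and 0.01 against -0.20, -0.06 and -0.14. The young groups did not overlap in either. For miRNA genes they overlapped, with 0.20, -0.01 and 0.00 in AL against -0.12, -0.11 and 0.00 in CR mice. In aged mice the medians were 0.02 for processed transcripts and -0.15 for snoRNA genes.

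Transcript length and base composition moved with the sign of the fold change among the 11514 protein-coding genes. From the fifth with the shortest transcripts to the fifth with the longest, 65.5%, 56.0%, 50.8%, 44.2% and 38.7% of genes had a positive fold change, and the medians went from 0.06 to -0.04. From the lowest to the highest GC content the shares were 36.7%, 46.5%, 54.1%, 60% and 58%. By mean FPKM they stayed between 48.5% and 53.3%. The young groups overlapped at both ends of length and of GC content. Mean deviations of genes with the shortest transcripts were -0.04, -0.01 and 0.03 in AL and 0.11, 0.11 and -0.05 in CR mice. Those of genes with the longest were 0.06, 0.01 and -0.04 against -0.07, -0.07 and 0.05. CR mouse 3 thus went against the other CR mice by length. At the lowest GC content the deviations were 0.02, 0.11 and -0.03 against -0.02, -0.05 and 0.01. In aged mice the medians by length went from 0.04 to -0.05. The part of length, base composition and of the number of genes at 0 in any list was not tested.

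**Figure D4:**
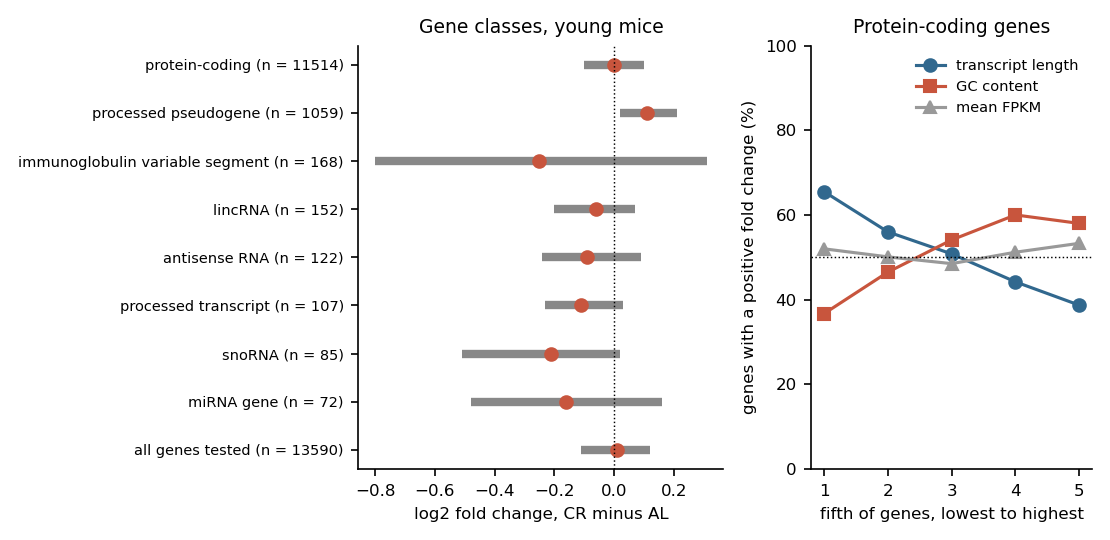
Left, median (point) and quartiles (bar) of the fold change for CR in young mice by gene class of GENCODE M21, on the log2(FPKM + 1) scale. Right, share of protein-coding genes with a positive fold change by transcript length, GC content and mean FPKM, each in 5 groups of equal size, from 65.5% in the shortest to 38.7% in the longest transcripts.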

How the data were processed

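RNA of whole tibiae of 12 mice was sequenced by the authors as stranded poly(A) libraries, with 48 libraries in the labels, 4 technical repeats per mouse. Per the labels and methods, reads were checked with FastQC 0.11.8 and MultiQC 1.6, trimmed with Trim Galore 0.5.0, aligned to mm10 with STAR 2.6.1 and quantified with StringTie 2.1.3b. The deposited values are FPKM, which the authors quantile normalized with R 4.1.1, in 1 column per mouse. The way repeats became 1 value was not given in the sources used here. The depth per mouse is unknown, so precision is the spread between mice.

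Genes averaging 1 FPKM or more across all mice were fitted on log2(FPKM + 1) in limma 3.58.1 (R 4.3.3), with the means of the 4 groups and a mean-dependent prior variance, and adjusted by Benjamini-Hochberg over all 13590 genes. Contrasts were CR against AL in young and in aged mice and their difference. The fit was tested on simulated data. All p-values are two-sided. With 3 mice against 3 an exact permutation test cannot go below 0.1, so it can call no gene. Gene lists, 58 in all, are described by counts and medians and were not tested as sets. The members and lists were chosen with earlier results of these data known.

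Named genes are those past the adjusted test, the 12 largest increases and 12 largest decreases among genes with an unadjusted p under 0.05 and groups apart (without predicted genes, clones, immunoglobulin and T cell receptor segments and small RNA genes), up to 3 genes per list by smallest p, and cell type markers. Classes, lengths and positions come from GENCODE M21 (GRCm38), which held 99.4% of the identifiers. The annotation release used by the authors was not stated. Length and GC content are those of a gene's longest transcript. Promoters and miRNAs come from RefSeq on GRCm38.p6.

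Alternatives were a pseudocount of 0.1, no filter, a mean of at least 5 FPKM, size-factor scaling, no variance trend, a quality weight per mouse, the 6 young mice alone, an unequal-variance test on FPKM, and each mouse left out. Leaving out aged AL mouse 14 with aged CR mouse 5, and testing protein-coding genes alone, were chosen after seeing the data.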

Additional observations from a re-analysis of the deposited data

Results flagged for a closer look

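Clec9a, a receptor of cross-presenting dendritic cells, had young CR mice wholly below young AL mice (2.34, 1.99 and 3.16 against 4.59, 3.65 and 3.23 FPKM) and aged CR mice wholly above aged AL mice (6.91, 3.93 and 4.23 against 3.65, 2.50 and 3.84 FPKM). The aged effect minus the young effect was 0.93 on the log2 scale, and in limma it did not pass adjustment (unadjusted p = 0.00764, adjusted p = 0.999). No other checked gene named by the rule had groups apart in opposite directions in the 2 ages. Genes named only as cell type markers and immunoglobulin genes were not checked. For Clec9a the difference was 0.78 without aged AL mouse 14 and 0.71 without aged CR mouse 5, with limma adjusted p-values of 0.97 and 0.995.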

How the results depend on the processing

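The count of 9 genes was 74 in the model of the 6 young mice alone, 304 with a quality weight per mouse, 161 with aged mice 14 (AL) and 5 (CR) both left out, and 0 by the unequal-variance test on FPKM. Leaving out single mice gave 0 to 43, with 0 when mouse 10 (young AL), 1 or 2 (young CR) was left out, 1 for mouse 11 and 5 for mouse 9 (young AL), 43 for mouse 14 (aged AL) and 26 for mouse 5 (aged CR). The 1499 genes at an unadjusted p under 0.05 became 912 with a mean of at least 5 FPKM, 2582 with no filter, 3046 with quality weights and 886 to 1929 without single mice. It was 886, 943 and 993 when mouse 9 (young AL), mouse 2 or mouse 1 (young CR) was left out. For the difference between ages, 0 became 4 with no filter, 1 with quality weights, 1 without the same pair of aged mice, and 0 to 1 without single mice. Of 132 named genes, none changed sign under any alternative that could be run, and 52 kept their side of the threshold under every one. Of the 9 genes that passed, Fasn lost its call least often, under 4 of 22 alternatives, and Hyal2 most often, under 13, while H2-Q6 lost it under 12 of 22 and Gm14027 and Gm23639 under 10 of 20 each. The study compared littermates, but which mice shared a litter was not given in the labels. No paired analysis was possible because the repeat numbers of the labels are technical repeats, mouse numbers are not shared between groups and the table has 1 column per mouse. The depth of each library is unknown, so counting error of low genes could not be assessed.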
